A study of Mus musculus with 8 samples.

Results

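Type I interferon response genes are genes that cells switch on when interferon alpha or beta binds its receptor. A list of 36 such genes was followed in livers of mice whose bile duct had been tied off, an operation that traps bile and injures the liver. Each gene was found by its exact symbol in the deposited expression files, repeated entries of 1 gene ID were summed, and all 36 were found among the 53816 gene IDs listed per library. All 36 also passed the filter on low values, a mean of at least 1 TPM over the libraries, which 13055 genes passed. Their mean levels ran between 1.39 TPM and 137 TPM, and 24 of them averaged at least 5 TPM. TPM is a transcript's share of its library, corrected for gene length. The 36 genes were chosen by name and not by a cut on the values measured here. Earlier results of these data were known when they were chosen, so the list is no independent support.

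Whole-liver RNA was sequenced from 4 mice with, by their labels, endothelial Myc overexpression and from 4 wild-type control mice. All 8 had the bile duct ligation, so no unligated liver was available for comparison. The sources used here do not give the driver of the Myc allele, the sex and age of the mice, the days since surgery or any batch. Nothing in them says which samples share a litter or a day, so the error reported is the spread between these 8 libraries.

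Type I interferons signal through a receptor of the subunits IFNAR1 and IFNAR2, whose kinases JAK1 and TYK2 activate the complex ISGF3, of which STAT2 and IRF9 are part. ISGF3 binds the interferon-stimulated response element in the promoters of its target genes. The targets include sensors of viral RNA, the transcription factors themselves, proteins that bind or degrade viral RNA, the ubiquitin-like ISG15 system and many further antiviral proteins. In liver, hepatocytes, Kupffer cells (the resident macrophages) and endothelial cells all carry the receptor.

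The interferon response genes did not separate the 2 groups, and 1 liver stood apart from the rest in all 36 of them. Control replicate 4 held the highest value of the 8 libraries in 36 of 36 genes, whereas it was the highest library in 11.3% of all tested genes. It exceeded the next library at least 2-fold in 21 of the 36 genes, against 0.567% of tested genes. Its ratio to the next library ran between 1.06 and 7.24 over the 36 genes, with a median of 2.43, and was 5.07 for Irf7. For scale, Irf7, a transcription factor that amplifies interferon production, stood between 21.5 and 47.7 TPM in the Myc-labelled livers, between 26.0 and 31.4 TPM in control replicates 1 to 3 and at 242 TPM in control replicate 4. No member passed an adjusted p of 0.05 between the groups with limma, and the values of both groups overlapped in every member.

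The gene that names the groups did not follow the labels. Myc stood at 339, 356, 25.6 and 249.2 TPM in Myc-labelled replicates 1 to 4, against 272, 207, 554 and 89.2 TPM in control replicates 1 to 4. Its log2 difference, -0.45 ± 0.95 (SE), had a limma 95% interval reaching between -2.68 and 1.77 (limma adjusted p = 1.0). An exact two-sided permutation test over the 70 assignments of the libraries gave p = 0.714, where the smallest possible p is 0.0286. Leaving out Myc-labelled replicate 3 gave a log2 difference of 0.43, and array weights gave 0.23. The sources used here do not say whether a transgene would be counted in this gene, and every direction given here rests on the libraries as labelled. Aligned bases, estimated from the deposited coverage and FPKM values, ranged between 5.29 and 6.74 Gb. Between 12442 and 13636 genes reached 1 TPM per library. Mitochondrially encoded transcripts took 10.02% to 11.2% of TPM in the Myc-labelled libraries and 7.73% to 9.60% in the controls, with the lowest share in control replicate 4. The part of these measures in the results was not tested.

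Promoter sequence was looked at next. The genes were chosen as interferon targets, and ISGF3 binds its element in the promoters of such targets. A high share of the element therefore describes the list and is no independent support. RefSeq promoter sequences of the build GRCm38.p6, 250 bases before to 50 bases after the annotated start, were found for 27 of the 36 genes by symbol. The core of the interferon-stimulated response element was searched as GAAA, any 2 bases and GAAA again, on either strand, with overlapping matches counted separately. A gene was counted if any of its promoter sequences held the core. It was present in 16 of the 27 genes (59.3%), and in 3.99% of all 27025 genes with a promoter sequence. In 10 of the 16 it occurred at least 2 times. The 16 were Ifih1, Ddx58, Ddx60, Stat2, Ifit1, Ifit3, Ifit3b, Oas1a, Oas1g, Oas3, Isg15, Rsad2, Bst2, Trim30a, Apol9a and Apol9b. Among them Ifit3 and Ifit3b, Oas1a and Oas1g, and Apol9a and Apol9b are near copies that share promoter sequence, so they are not separate cases. These letters were not in the window of Irf9, Irf7, Ifit2, Oasl1, Oasl2, Herc6, Cmpk2, Ifi44, Ifi35, Xaf1 and Lgals3bp. The gamma-activated sequence, a motif of interferon gamma targets, was searched as TTC, any 3 bases and GAA on either strand. It was present in 4 of the 27 genes (14.8%), which were Ifit2, Oas1a, Bst2 and Ifi35, and in 9.55% of the 27025 genes. A match is a description of the letters and not evidence of binding. No sequence was printed or searched for Dhx58, Zbp1, Oas2, Usp18, Mx2, Parp14, Ifi27, Ifi27l2a and Rtp4.

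The 200 bases upstream of the start are shown for 5 promoters, chosen for how the core is arranged. Each is written on the gene's own strand, 5′ to 3′, with the core matches in capitals. Isg15 (chr4:156200819-156201018, minus strand) holds 3 overlapping matches, which begin between 78 and 66 bases before the start. Ifit1 (chr19:34640689-34640888, plus strand) holds 2 separate matches, both as the reverse complement. Bst2 (chr8:71537473-71537672, minus strand) holds 2 overlapping matches. Ifit3 (chr19:34583329-34583528, plus strand) and Ifit3b (chr19:34607757-34607956, plus strand) are neighbours whose promoter windows share an identical run of 169 bases, both core matches included.
Isg15: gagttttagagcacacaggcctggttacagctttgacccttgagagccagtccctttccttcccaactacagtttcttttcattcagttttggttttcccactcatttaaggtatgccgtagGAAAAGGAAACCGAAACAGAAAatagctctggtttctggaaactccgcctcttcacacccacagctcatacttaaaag
Ifit1: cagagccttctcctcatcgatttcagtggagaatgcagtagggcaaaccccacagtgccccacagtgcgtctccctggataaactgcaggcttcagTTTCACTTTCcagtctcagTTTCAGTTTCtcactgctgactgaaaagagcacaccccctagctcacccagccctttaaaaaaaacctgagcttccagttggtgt
Bst2: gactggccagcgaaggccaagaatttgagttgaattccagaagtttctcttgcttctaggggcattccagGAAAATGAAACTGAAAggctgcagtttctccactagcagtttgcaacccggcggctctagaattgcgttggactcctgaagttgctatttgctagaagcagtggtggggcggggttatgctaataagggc
Ifit3: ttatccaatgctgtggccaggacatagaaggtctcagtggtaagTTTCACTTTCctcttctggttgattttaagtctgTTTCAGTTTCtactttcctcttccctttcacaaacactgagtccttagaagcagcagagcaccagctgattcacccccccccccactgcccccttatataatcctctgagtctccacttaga
Ifit3b: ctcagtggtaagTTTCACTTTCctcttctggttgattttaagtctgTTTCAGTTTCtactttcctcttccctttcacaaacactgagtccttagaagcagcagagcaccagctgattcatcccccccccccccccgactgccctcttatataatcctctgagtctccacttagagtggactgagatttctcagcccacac

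Oas1a (chr5:120907526-120907725, minus strand) and Oas1g (chr5:120887614-120887813, minus strand) are shown because they are a second pair of near copies, with 2 overlapping matches directly before the start in each. Their promoter windows share an identical run of 73 bases, and those of Apol9a and Apol9b an identical run of 278 bases.
Oas1a: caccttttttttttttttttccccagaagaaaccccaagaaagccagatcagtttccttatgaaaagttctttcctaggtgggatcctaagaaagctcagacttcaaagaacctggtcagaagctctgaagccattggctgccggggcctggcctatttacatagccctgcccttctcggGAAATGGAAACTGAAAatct
Oas1g: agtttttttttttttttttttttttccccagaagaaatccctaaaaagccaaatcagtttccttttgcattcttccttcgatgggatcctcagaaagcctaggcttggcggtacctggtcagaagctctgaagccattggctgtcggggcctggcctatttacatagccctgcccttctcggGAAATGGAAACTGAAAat
These pairs also share transcript sequence, so reads may have been divided between the partners in a way the files do not show. Of the 50-base windows in the longest coding transcript of Ifit3, 51.2% were present in that of Ifit3b. The share was 56.9% for Oas1a in Oas1g and 50.6% for Apol9a in Apol9b. For each of these 6 genes the level of the pair is therefore also given as a sum.

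The cytosolic sensors of nucleic acids came first in the pathway. Ddx58, which encodes the RNA sensor RIG-I (chromosome 4, 40203773 to 40239828, mm10), stood at 18.7, 13.9, 9.99 and 15.9 TPM in Myc-labelled replicates 1 to 4, against 14.04, 10.7, 14.5 and 25.9 TPM in control replicates 1 to 4. Zbp1, a sensor of Z-form nucleic acids that can trigger necroptosis (chromosome 2, 173206612 to 173218923), stood at 11.6, 7.56, 3.29 and 15.9 TPM in the Myc-labelled livers, against 10.8, 6.76, 8.37 and 42.5 TPM in the controls. In both genes the Myc-labelled values lay around those of control replicates 1 to 3, with Myc-labelled replicate 3 lowest and control replicate 4 highest. The gap was wider in Zbp1, at 5.08 times the median of the other 7 libraries, than in Ddx58, at 1.85 times. Log2 differences, Myc-labelled minus control on the log2(TPM + 1) scale, were -0.11 ± 0.26 (SE) for Ddx58 and -0.56 ± 0.62 for Zbp1. This scale understates the fold of genes at low levels.

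Ifih1 encodes MDA5, which binds long double-stranded RNA. It stood between 6.71 and 12.5 TPM in the Myc-labelled livers, between 7.49 and 11.9 TPM in control replicates 1 to 3 and at 24.2 TPM in control replicate 4. Dhx58 encodes LGP2, a regulator of both other RNA sensors, and stood between 2.46 and 8.02 TPM in the Myc-labelled livers, between 3.39 and 5.69 TPM in control replicates 1 to 3 and at 19.4 TPM in control replicate 4. Ddx60, a related helicase, stood between 0.851 and 2.67 TPM in the Myc-labelled livers, between 0.757 and 1.27 TPM in control replicates 1 to 3 and at 3.34 TPM in control replicate 4. Over the 5 sensors the median log2 difference was -0.15, and control replicate 4 was a median 3.16 times the other libraries.

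The transcription factors of the pathway differed in how far control replicate 4 stood out. Irf7 (chromosome 7, 141262706 to 141266481) stood at 47.7, 35.2, 21.5 and 41.7 TPM in Myc-labelled replicates 1 to 4, against 28.8, 26.0, 31.4 and 242 TPM in control replicates 1 to 4. Control replicate 4 was 5.07 times the next library, and 3 of the 4 Myc-labelled livers lay above control replicates 1 to 3. For Irf7 the log2 difference of -0.48 ± 0.71 had 95% limits of -2.13 and 1.17 (limma adjusted p = 1.0). Stat2 and Irf9, which work together in ISGF3, varied less. Stat2 stood between 21.2 and 31.2 TPM in the Myc-labelled livers and between 12.5 and 33.8 TPM in control replicates 1 to 3, with control replicate 4 at 37.4 TPM. Irf9 stood between 9.37 and 20.1 TPM in the Myc-labelled livers, between 9.83 and 13.03 TPM in control replicates 1 to 3 and at 28.2 TPM in control replicate 4. For Stat2 the highest library was 1.11 times the next, which was control replicate 2.

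**Figure D1:**
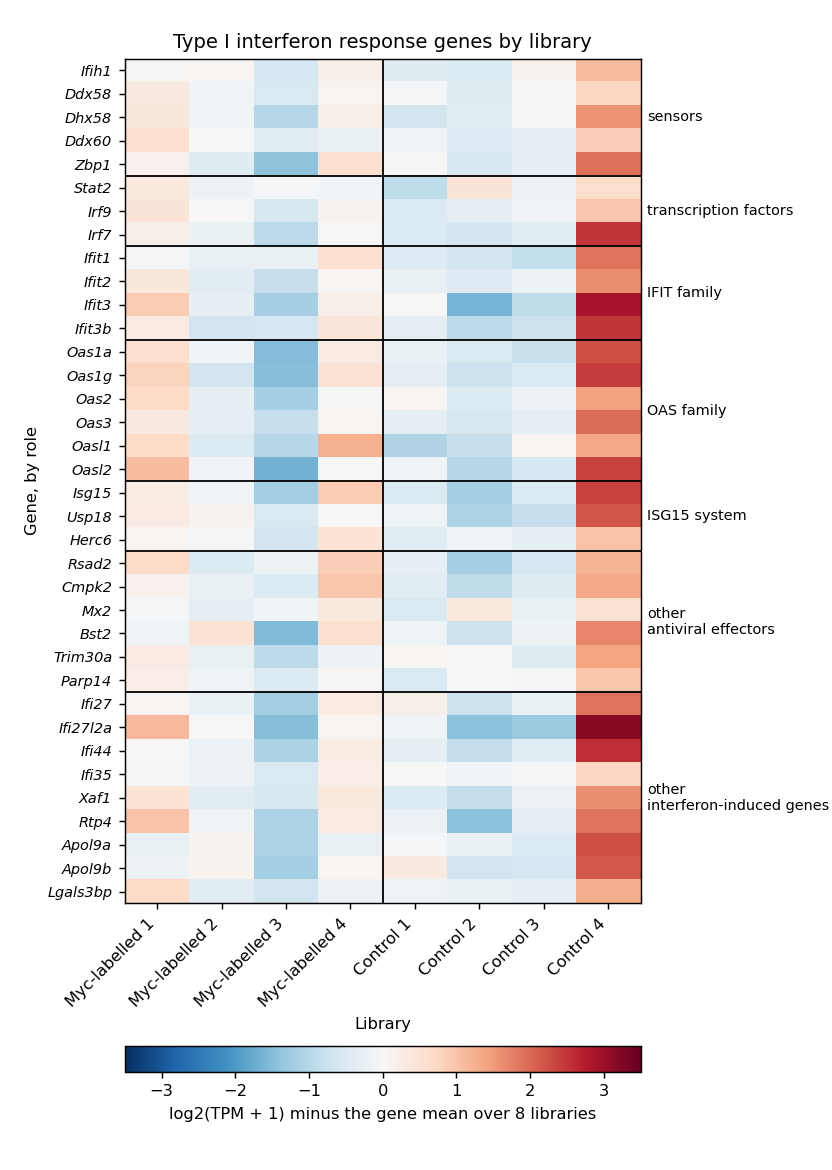
Log2(TPM + 1) of the 36 genes (rows, ordered by role) in the 8 libraries (columns, Myc-labelled left of control), as the difference from each gene's own mean over the libraries; red is above that mean and blue below it. The column of control replicate 4 is the highest in 36 of 36 rows, and Myc-labelled replicate 3 is the lowest in 23.

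IFIT proteins bind the ends of foreign RNA and block its translation, and their genes lie side by side on chromosome 19, 34550694 to 34650009. Ifit3 (34583531 to 34588731) stood at 11.0, 4.35, 1.93 and 6.41 TPM in Myc-labelled replicates 1 to 4, against 5.43, 1.10, 2.48 and 47.2 TPM in control replicates 1 to 4. Control replicate 4 was thus 10.9 times the median of the other 7 libraries, among which the groups overlapped. For Ifit3 the log2 difference of -0.18 ± 0.99 had 95% limits of -2.49 and 2.14, which spans several-fold changes both ways. Ifit3b stood between 0.583 and 2.38 TPM in the Myc-labelled livers, between 0.341 and 1.02 TPM in control replicates 1 to 3 and at 13.3 TPM in control replicate 4. Its ratio of 19.5 to the median of the other libraries was the highest of the 36 genes. Summed, Ifit3 and Ifit3b had 13.04, 4.93, 2.61 and 8.79 TPM in the Myc-labelled livers, against 6.45, 1.44, 2.96 and 60.5 TPM in the controls, with control replicate 4 again the highest.

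Ifit1 stood between 1.89 and 4.15 TPM in the Myc-labelled livers, between 0.895 and 1.51 TPM in control replicates 1 to 3 and at 11.9 TPM in control replicate 4. It was the only member of the 36 in which every Myc-labelled library lay above control replicates 1 to 3. Ifit2, which binds AU-rich RNA, stood between 0.754 and 3.01 TPM in the Myc-labelled livers, between 1.24 and 1.72 TPM in control replicates 1 to 3 and at 8.39 TPM in control replicate 4. Over the 4 genes of the family the median ratio of control replicate 4 to the other libraries was 8.58, the highest of the 7 role groups.

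OAS enzymes sense double-stranded RNA and make the oligoadenylates that activate RNase L. The Oas1a, Oas1g, Oas2 and Oas3 genes lie together on chromosome 5, and Oasl1 and Oasl2 form a second pair on that chromosome. Oasl2 (114896936 to 114912234) stood at 12.1, 4.77, 0.946 and 5.20 TPM in Myc-labelled replicates 1 to 4, against 4.51, 2.06, 3.01 and 31.2 TPM in control replicates 1 to 4. Myc-labelled replicates 1, 2 and 4 lay above control replicates 1 to 3, and Myc-labelled replicate 3 lay below them. Oasl1 (114923240 to 114937915), whose protein in mouse restrains translation of Irf7, stood at 19.4, 8.41, 5.64 and 30.5 TPM in the Myc-labelled livers, against 5.42, 6.53, 13.2 and 32.2 TPM in the controls. Here 2 livers stood high together: control replicate 4 was 1.06 times Myc-labelled replicate 4, the smallest such gap among the 36 genes. Log2 differences were 0.20 ± 0.66 for Oasl1 and -0.32 ± 0.86 for Oasl2.

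Among the other OAS genes, Oas1a stood between 0.696 and 6.19 TPM in the Myc-labelled livers, between 1.82 and 3.10 TPM in control replicates 1 to 3 and at 21.9 TPM in control replicate 4. Its near copy Oas1g stood between 0.127 and 4.44 TPM in the Myc-labelled livers, between 0.936 and 1.53 TPM in control replicates 1 to 3 and at 16.4 TPM in control replicate 4. Summed, Oas1a and Oas1g had 10.6, 4.57, 0.823 and 8.39 TPM in Myc-labelled replicates 1 to 4, against 4.63, 3.26, 3.01 and 38.4 TPM in control replicates 1 to 4. Myc-labelled replicate 3 was the lowest library for all 4 enzymes of the cluster. Oas2 stood between 0.848 and 5.78 TPM in the Myc-labelled livers, between 1.97 and 3.36 TPM in control replicates 1 to 3 and at 9.95 TPM in control replicate 4. Oas3 stood between 0.105 and 1.41 TPM in the Myc-labelled livers, between 0.326 and 0.540 TPM in control replicates 1 to 3 and at 6.61 TPM in control replicate 4. The median log2 difference of the 6 genes was -0.36.

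ISG15 is a ubiquitin-like protein that is joined to other proteins during the response. Isg15 (chromosome 4, 156199455 to 156200796) stood at 11.7, 8.60, 3.57 and 18.7 TPM in Myc-labelled replicates 1 to 4, against 6.56, 3.78, 6.57 and 55.4 TPM in control replicates 1 to 4. Control replicate 4 was 8.42 times the median of the other libraries, and Myc-labelled replicate 4 came next. For Isg15 the log2 difference of -0.12 ± 0.82 had 95% limits of -2.04 and 1.79. Usp18, which removes ISG15 and also damps receptor signalling, stood between 5.70 and 10.8 TPM in the Myc-labelled livers, between 3.53 and 7.71 TPM in control replicates 1 to 3 and at 42.5 TPM in control replicate 4. Herc6, the ligase for ISG15 in mouse, stood between 1.67 and 4.73 TPM in the Myc-labelled livers, between 2.21 and 2.76 TPM in control replicates 1 to 3 and at 7.32 TPM in control replicate 4.

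Of the other antiviral effectors, Bst2, which encodes tetherin, a membrane protein that holds budding virus at the cell surface, had the highest level of all 36 genes. Bst2 (chromosome 8, 71534255 to 71537456) stood at 101, 157, 37.9 and 165 TPM in Myc-labelled replicates 1 to 4, against 99.7, 66.6, 99.1 and 365 TPM in control replicates 1 to 4. Myc-labelled replicate 3 was the lowest library and control replicate 4 the highest, at 3.66 times the median of the others. For Bst2 the log2 difference of -0.31 ± 0.62 had 95% limits of -1.75 and 1.12. Rsad2 encodes viperin, which makes a chain-terminating nucleotide, and shares a locus on chromosome 12 with Cmpk2, a nucleotide kinase that feeds it. Rsad2 stood between 1.73 and 5.94 TPM in the Myc-labelled livers, between 0.722 and 2.12 TPM in control replicates 1 to 3 and at 7.82 TPM in control replicate 4. Cmpk2 stood between 0.930 and 4.30 TPM in the Myc-labelled livers, between 0.462 and 1.07 TPM in control replicates 1 to 3 and at 5.84 TPM in control replicate 4. In both genes Myc-labelled replicate 4 came close to control replicate 4, within 1.32-fold for Rsad2 and 1.36-fold for Cmpk2.

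Mx2, a dynamin-like antiviral GTPase, varied least in this group of effectors. It averaged 7.45 ± 1.79 TPM in the Myc-labelled livers and 7.93 ± 2.87 TPM in the controls (SD). Control replicate 4 was 1.58 times the median of the others, the lowest such ratio of the 36. Trim30a, a TRIM protein that restrains Toll-like receptor signalling in mouse, stood between 1.26 and 4.14 TPM in the Myc-labelled livers, between 2.16 and 3.43 TPM in control replicates 1 to 3 and at 10.1 TPM in control replicate 4. Parp14, a mono-ADP-ribosyltransferase, stood between 5.03 and 9.12 TPM in the Myc-labelled livers, between 4.97 and 7.57 TPM in control replicates 1 to 3 and at 15.8 TPM in control replicate 4.

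**Figure D2:**
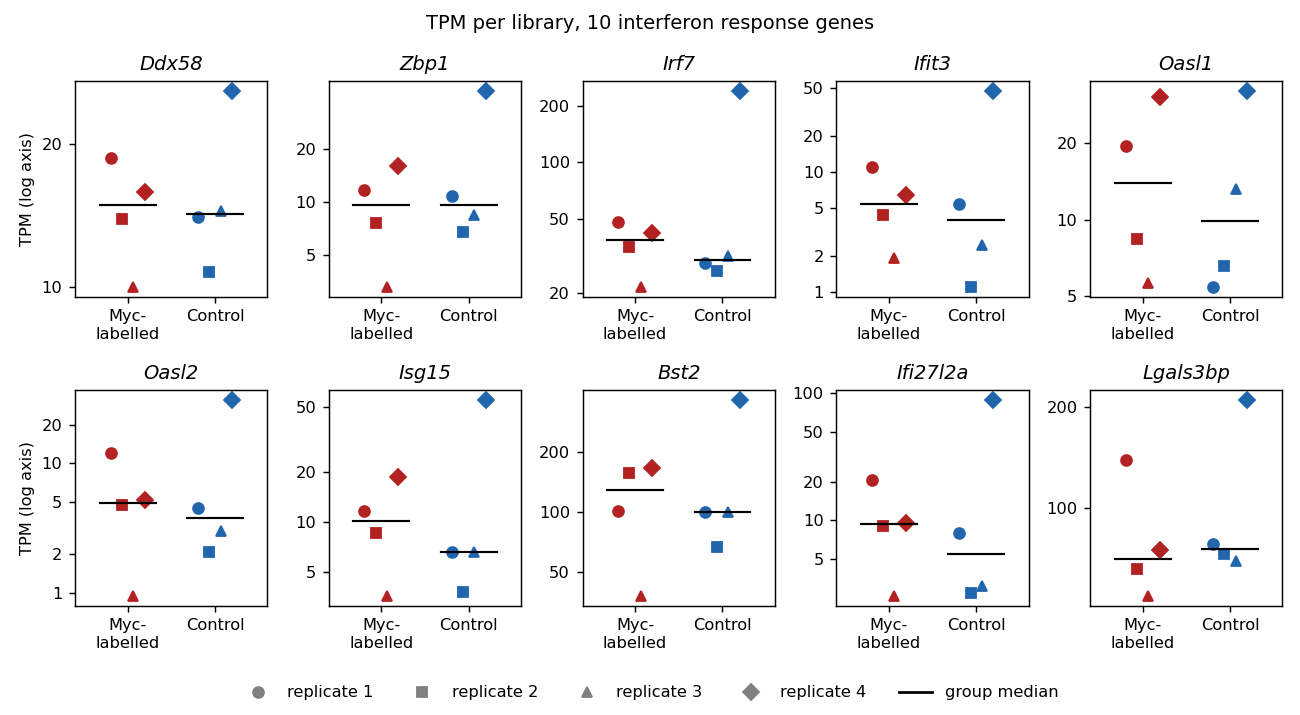
TPM per library on a log axis for 10 interferon response genes, with the Myc-labelled livers left of the controls; point shapes mark replicate numbers and bars the group medians. In each panel control replicate 4 is the highest point, for example Ifi27l2a at 89.5 TPM and Lgals3bp at 211 TPM, while the other control points overlap the Myc-labelled points.

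The last group held interferon-induced genes of varied or less defined function. Ifi27l2a, a small mitochondrial protein gene used as a marker of the response (chromosome 12, 103442167 to 103443680), varied most of the 36. It stood at 20.9, 8.98, 2.55 and 9.60 TPM in Myc-labelled replicates 1 to 4, against 7.91, 2.68, 3.02 and 89.5 TPM in control replicates 1 to 4. Myc-labelled replicates 1, 2 and 4 lay above control replicates 1 to 3, and control replicate 4 was 4.29 times the next library. For Ifi27l2a the log2 difference of -0.14 ± 1.13 had 95% limits of -2.82 and 2.55. Its neighbour Ifi27 stood between 27.3 and 78.8 TPM in the Myc-labelled livers, between 38.0 and 75.4 TPM in control replicates 1 to 3 and at 246 TPM in control replicate 4. Lgals3bp, a secreted glycoprotein that binds galectin 3 (chromosome 11, 118392751 to 118402092), stood at 139.6, 65.8, 54.9 and 75.2 TPM in the Myc-labelled livers, against 78.1, 73.3, 69.9 and 211 TPM in the controls. Control replicates 1 to 3 lay close together, and Myc-labelled replicate 1 was second to control replicate 4. Its log2 difference was -0.28 ± 0.39.

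Apol9a and Apol9b encode apolipoprotein L proteins and lie apart on chromosome 15. Apol9a stood between 14.5 and 34.6 TPM in the Myc-labelled livers, between 22.7 and 30.2 TPM in control replicates 1 to 3 and at 154 TPM in control replicate 4. Apol9b stood between 20.4 and 51.9 TPM in the Myc-labelled livers, between 29.9 and 60.0 TPM in control replicates 1 to 3 and at 216 TPM in control replicate 4. Summed, the pair had 68.0, 86.5, 34.9 and 76.3 TPM in Myc-labelled replicates 1 to 4, against 90.2, 56.8, 53.5 and 370.3 TPM in control replicates 1 to 4. The Myc-labelled values of this pair lay around those of control replicates 1 to 3. The log2 difference of the sum was -0.67 ± 0.61 (limma adjusted p = 1.0).

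Ifi44 stood between 0.0897 and 1.82 TPM in the Myc-labelled livers, between 0.334 and 0.905 TPM in control replicates 1 to 3 and at 13.2 TPM in control replicate 4, which was 7.24 times the next library and the widest such gap of the 36. Ifi35, a partner of Nmi, stood between 16.6 and 29.3 TPM in the Myc-labelled livers, between 22.6 and 24.2 TPM in control replicates 1 to 3 and at 41.6 TPM in control replicate 4. It had the smallest spread of the 36. Xaf1, which binds the apoptosis inhibitor XIAP, stood between 3.44 and 8.01 TPM in the Myc-labelled livers, between 2.64 and 4.67 TPM in control replicates 1 to 3 and at 18.9 TPM in control replicate 4. Rtp4, a chaperone of G protein-coupled receptors that in mouse also restrains the interferon response, stood between 5.21 and 25.2 TPM in the Myc-labelled livers, between 3.90 and 10.4 TPM in control replicates 1 to 3 and at 48.3 TPM in control replicate 4.

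Of the 36 genes, 9 overlap an annotated gene on the opposite strand, and the sources used here do not say whether the reads keep their strand. The overlaps are of Dhx58 with Dhx58os, Irf7 with Phrf1, Oas2 with Gm43068, Oasl1 with Gm13822, Usp18 with Gm44148, Herc6 with Gm19244, Trim30a with Gm25405, Ifi35 with Gm11626 and Rtp4 with Masp1. Reads of these neighbours cannot be told apart from reads of the named genes where they overlap.

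The order of the libraries was shared by most of the genes. After control replicate 4, the second-highest library was Myc-labelled replicate 1 in 19 genes and Myc-labelled replicate 4 in 14. Over all tested genes these libraries were second in 23.4% and 14.2%, and highest in 35.8% and 14.4%. Because control replicate 4 took the first place in all 36, the shares of second places alone are not a like comparison. Myc-labelled replicate 3 was the lowest library in 23 of the 36 genes and in 35.6% of tested genes, and control replicate 2 was the lowest in 8, against 8.68% of tested genes. The mean of the 36 genes, each centred on its own mean of log2(TPM + 1), was 0.35, -0.19, -0.86 and 0.26 in Myc-labelled replicates 1 to 4, against -0.28, -0.61, -0.38 and 1.70 in control replicates 1 to 4. Summed over the 36 genes the levels were 729, 589.6, 302 and 717 TPM in the Myc-labelled livers, against 540.0, 418, 485 and 2182 TPM in the controls. The 3 low controls and the low Myc-labelled replicate 3 thus lay on one side, Myc-labelled replicates 1 and 4 above them, and control replicate 4 far above all. In 29 of the 36 genes control replicates 1 to 3 all lay below Myc-labelled replicate 1, against 53.0% of tested genes, and in 29 below Myc-labelled replicate 4, against 30.9%. In 16 they all lay below Myc-labelled replicate 2, against 19.7% of tested genes, and in 23 all above Myc-labelled replicate 3, against 43.6%.

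The spread of these genes over the livers was wider than that of most tested genes. The median SD of log2(TPM + 1) over the 8 libraries was 0.876 for the 36 genes and 0.294 for all tested genes, and 27 of the 36 lay above the 90th percentile of all tested genes, 0.576. It ran between 0.367 for Ifi35 and 1.58 for Ifi27l2a. Within the Myc-labelled libraries the median SD was 0.575, and within the controls 1.09. For all tested genes these values were 0.303 and 0.263. The SD was smaller in the Myc-labelled than in the control libraries in 36 of 36 genes, and it was larger in the controls in 40.1% of tested genes. The control SD includes control replicate 4, the highest library in all 36, so this count does not describe the controls apart from it. The SD of the other controls alone was not computed. Without control replicate 4 the median SD of the 36 genes was 0.485, against 0.298 for all tested genes.

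**Figure D3:**
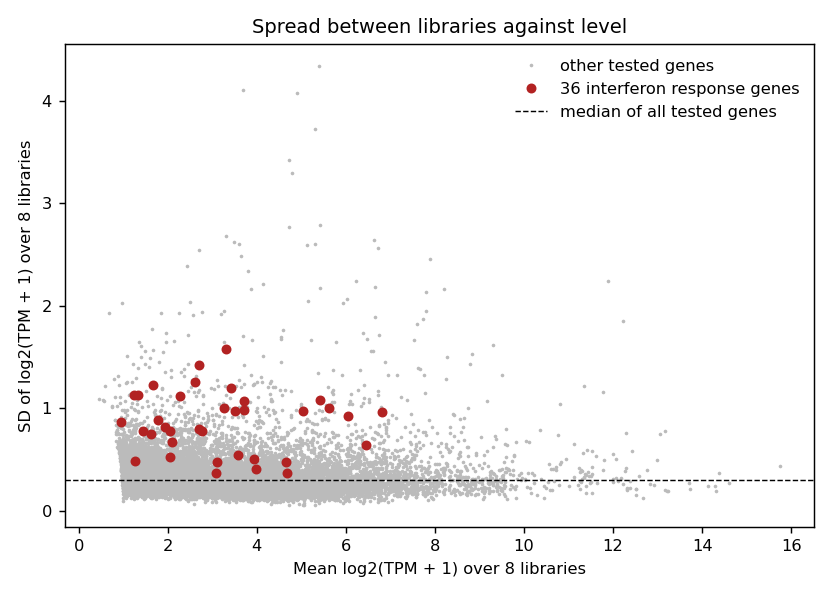
SD of log2(TPM + 1) over the 8 libraries against the mean of log2(TPM + 1), with 1 point per tested gene; red points are the 36 interferon response genes, grey points the other tested genes and the dashed line the median SD of all tested genes, 0.294. The red points all lie above the dashed line, with a median SD of 0.876.

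The comparison of the groups asks whether endothelial Myc overexpression alters the cholestatic liver, here for its interferon response. In the limma fit over 13055 genes, 0 of the 36 members passed an adjusted p of 0.05, as did 0% of all tested genes, and all 36 had an adjusted p of 1.0. At an unadjusted p under 0.05 the count was also 0 of 36, against 1.26% of tested genes on the higher side and 0.597% on the lower side of the Myc-labelled livers. Groups with no overlap were found in 0 of 36 members, against 0.935% of tested genes higher and 0.322% lower. Of the 36 log2 differences 28 were below 0 and 8 above, with a median of -0.23. Among all tested genes 58% were above 0, with a median of 0.04. They ran between -0.74 ± 0.59 for Apol9a and 0.43 ± 0.49 for Rsad2. The 8 above 0 were those of Ddx60, Stat2, Irf9, Ifit1, Oasl1, Rsad2, Cmpk2 and Rtp4, of which those of Ddx60, Stat2, Irf9, Ifit1 and Rtp4 lay below 0 after median-of-ratios scaling and after quantile normalization.

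These data bound the group difference of the interferon genes only loosely. The 95% interval of the log2 difference reached a median of 1.22 to either side for the 36 genes, against 0.473 for all tested genes. For Irf7 the interval of -2.13 to 1.17 and for Bst2 that of -1.75 to 1.12 include more than a doubling in the Myc-labelled livers. Both also include more than a halving, and reach further on that side. In whole liver, a change in the number of responding cells and a change in transcript per cell cannot be told apart.

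The direction of the group difference turned on control replicate 4. Without it 30 of the 36 log2 differences were above 0, as were 60.2% of all tested genes, with a median of 0.24 for the 36 genes and 0.05 for all tested genes. Control replicate 4 was the highest library in all 36, so leaving it out had to raise each of their differences. This does not hold for all tested genes, so the counts without it are a description and not a test. At an unadjusted p under 0.05, 3 members were then higher in the Myc-labelled libraries, and so were 0.965% of tested genes. These were Rsad2 at 0.90 ± 0.36, Ifit1 at 0.67 ± 0.27 and Usp18 at 0.66 ± 0.27 on the log2 scale. None of the 3 passed after adjustment (limma adjusted p = 1.0 each, with adjusted p between 0.9 and 1.0 for all members under all alternatives). Without Myc-labelled replicate 3 the median was 0.03, with 20 of 36 above 0 and a median of 0.11 for all tested genes. With array weights, which give each library a weight by its residuals, 36 of 36 log2 differences were below 0 with a median of -0.35. These weights did not reduce control replicate 4, which had 1.5, against 0.588, 0.975 and 1.62 for control replicates 1 to 3. Myc-labelled replicates 1 to 4 had 0.628, 3.32, 0.42 and 0.82. Group medians went the other way from the means in most genes: the median of the Myc-labelled livers exceeded that of the controls in 26 of 36 genes, against 60.3% of tested genes.

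**Figure D4:**
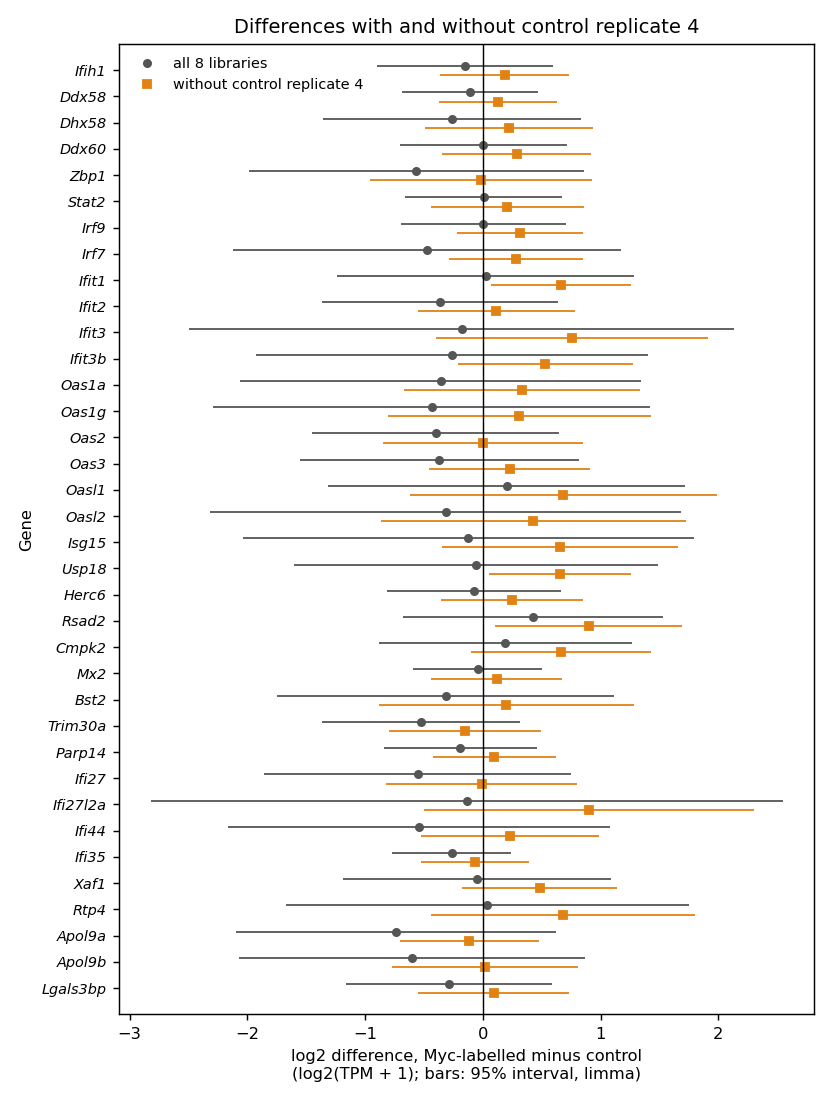
Log2 difference (Myc-labelled minus control, log2(TPM + 1)) with its 95% limma interval for each of the 36 genes, over all 8 libraries (grey circles) and without control replicate 4 (orange squares). Over all 8 libraries 28 of 36 circles lie below 0, and without control replicate 4 30 of 36 squares lie above 0; in Rsad2, Ifit1 and Usp18 the interval of the square does not reach 0.

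The genes of the pathway around the 36 were read from 6 further lists. For comparison with their counts, 58% of all tested genes had a log2 difference above 0, and 60.2% without control replicate 4. Control replicate 4 was the highest library in 11.3% of tested genes. No interferon gene itself reached the filter: of 21 ligand genes 18, Ifnb1 and Ifng among them, were listed at 0 in all 8 libraries. The highest of all ligand values was 0.265 TPM, of Ifna7 in control replicate 1. With such values no comparison of ligand levels between the livers could be made.

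Receptors and kinases followed the targets only in part. Of 10 genes 9 were tested, and 0 passed the adjusted or the unadjusted threshold with limma. Control replicate 4 was the highest library in 2 of the 9, against 11.3% of all tested genes. The centred mean of the list was 0.303 in control replicate 4, 0.299 in Myc-labelled replicate 1 and lowest, at -0.307, in Myc-labelled replicate 3. For the 36 genes it was 1.70 in control replicate 4. Ifnar1 stood at 19.0, 15.9, 14.4 and 20.8 TPM in Myc-labelled replicates 1 to 4, against 13.7, 19.8, 19.2 and 15.3 TPM in control replicates 1 to 4. Ifnar2 stood at 76.5, 77.7, 74.0 and 90.2 TPM in the Myc-labelled livers, against 96.2, 68.3, 53.6 and 98.5 TPM in the controls. Both receptor subunits were thus present in every liver, and their groups overlapped. The 2 genes with the smallest p were Ifngr2, a subunit of the interferon gamma receptor, at 13.6 ± 3.76 TPM in the Myc-labelled livers and 10.9 ± 3.44 TPM in the controls (SD), and Jak2 at 7.29 ± 1.37 TPM in the Myc-labelled livers and 6.13 ± 1.05 TPM in the controls. The median log2 difference of the 9 was 0.05, with 7 above 0, and 0.01 after median-of-ratios scaling.

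The induction pathway leads to the making of interferon, and the feedback genes limit the response. Of 19 symbols in the induction list 17 were found, and 15 of those genes were tested. Of the 15 genes 5 were above and 10 below 0, with a median of -0.05. Of these, control replicate 4 was the highest in 6. Ticam1, the adaptor of Toll-like receptor 3, averaged 9.35 ± 1.65 TPM in the Myc-labelled livers and 10.6 ± 0.535 TPM in the controls. Irf2, a repressor of interferon targets, averaged 21.7 ± 1.77 TPM in the Myc-labelled livers and 25.7 ± 5.97 TPM in the controls. Among 7 tested genes of feedback and nucleic acid control 3 were above and 4 below 0, with a median of -0.02, and control replicate 4 was the highest in 4. Single genes of both lists spread widely within both groups, such as Ikbke, a kinase of the induction pathway, with 23.5, 16.7, 13.1 and 59.0 TPM in Myc-labelled replicates 1 to 4, against 13.8, 23.6, 35.4 and 43.9 TPM in control replicates 1 to 4. Socs3, a feedback inhibitor of cytokine receptors, had 59.5, 20.3, 32.1 and 51.5 TPM in the Myc-labelled livers, against 22.8, 95.6, 31.6 and 23.0 TPM in the controls. The RNA editor Adar averaged 8.90 ± 1.08 TPM in the Myc-labelled livers and 11.0 ± 4.26 TPM in the controls, and Rnaseh2b, a subunit of RNase H2, 6.97 ± 0.926 TPM in the Myc-labelled livers and 7.88 ± 2.32 TPM in the controls. In both lists 0 genes passed the adjusted or the unadjusted threshold with limma.

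Targets known more for interferon gamma shared the high library, with exceptions. Control replicate 4 was the highest in 15 of 19 tested genes, and Myc-labelled replicate 4 was the highest in the other 4, which were Ifi47, Cxcl9, Cxcl10 and Psmb10. Cxcl9, a chemokine that attracts T cells, stood at 1.63, 2.0, 0.326 and 29.4 TPM in Myc-labelled replicates 1 to 4, against 0.666, 1.499, 1.298 and 11.1 TPM in control replicates 1 to 4. Cxcl10 stood at 6.85, 4.01, 3.73 and 21.2 TPM in the Myc-labelled livers, against 1.67, 4.07, 3.35 and 21.1 TPM in the controls. In these chemokines Myc-labelled replicate 4 was as high as control replicate 4 or higher, whereas in the 36 genes it stood below it throughout. Igtp, an immunity-related GTPase, stood at 19.3, 13.7, 8.72 and 15.5 TPM in the Myc-labelled livers, against 12.3, 11.8, 11.5 and 59.7 TPM in the controls. Over the list 4 log2 differences were above and 15 below 0 with a median of -0.24, and without control replicate 4 15 were above 0 with a median of 0.15. Tgtp1 and Tgtp2, near copies of an immunity-related GTPase between which reads may be divided, had the smallest p. Tgtp1 averaged 4.94 ± 1.71 TPM in the Myc-labelled livers and 16.5 ± 17.2 TPM in the controls. Tgtp2 averaged 1.87 ± 0.639 TPM in the Myc-labelled livers and 6.89 ± 7.61 TPM in the controls. With limma 0 of the 19 passed the adjusted threshold and 0 the unadjusted.

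A further list of interferon-induced genes outside the 36 followed them. Control replicate 4 was the highest in 32 of 37 tested genes, the exceptions being Ifitm1, Ifitm2, Trim25, Nmi and Isg20. Ly6e, a membrane protein that blocks entry of some viruses, averaged 673 ± 168 TPM in the Myc-labelled livers and 1052 ± 597 TPM in the controls, and reached 1873 TPM in control replicate 4. Parp12 averaged 26.3 ± 5.26 TPM in the Myc-labelled livers and 31.998 ± 11.4 TPM in the controls. Mx1 stood at 2.20, 1.41, 0.625 and 2.57 TPM in the Myc-labelled livers, against 0.937, 0.430, 0.447 and 5.399 TPM in the controls. Of the 37 log2 differences 10 were above and 27 below 0, with a median of -0.16, and without control replicate 4 28 were above 0 with a median of 0.12. With limma 0 of the 37 passed the adjusted threshold and 0 the unadjusted.

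**Figure D5:**
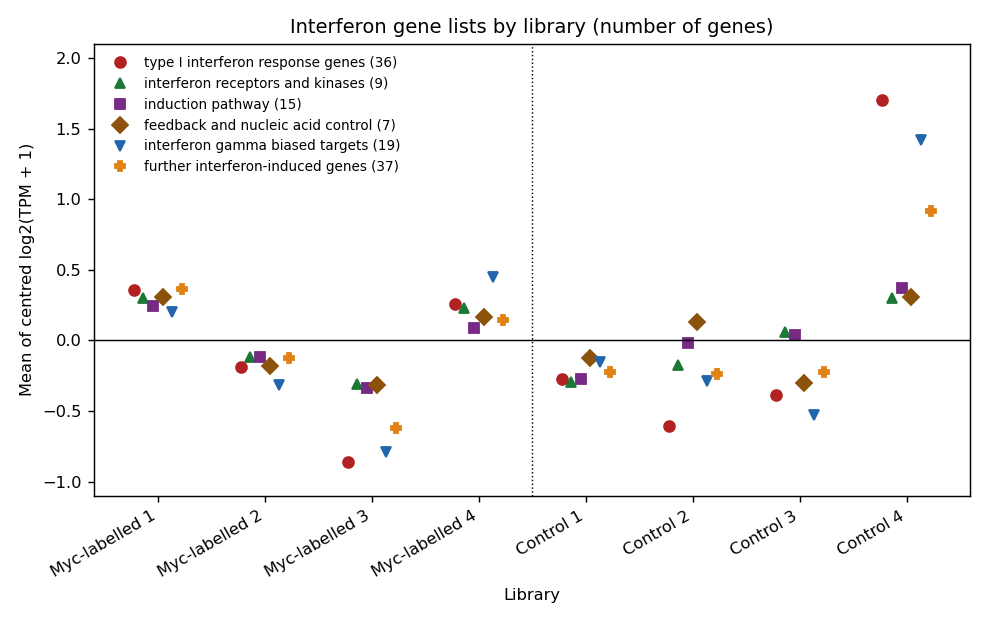
Mean of log2(TPM + 1), each gene centred on its own mean over the 8 libraries, for the 36 interferon response genes and 5 further lists (marker shapes, with the number of genes in the legend) in each library, Myc-labelled left of control. In control replicate 4 the 36 genes stand at 1.70, the interferon gamma targets at 1.42 and the further interferon-induced genes at 0.92, and the receptors and kinases at 0.30.

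Markers of the cell types that a liver holds were summed in each library to set beside control replicate 4. Markers of plasmacytoid dendritic cells, the main makers of interferon alpha, summed to 0.206 to 1.32 TPM in the Myc-labelled livers and to 0.233 to 1.003 TPM in the controls. In control replicate 4 that sum was 1.003 TPM, with Cox6a2 listed at 0 and 1 of 6 markers at its highest there. Kupffer cell markers summed to 645 to 1193 TPM in the Myc-labelled livers and 821 to 1708 TPM in the controls, with 1472 TPM in control replicate 4, where 7 of 9 had their highest value. Monocyte and macrophage markers summed to 149 to 474 TPM in the Myc-labelled livers and 236 to 373 TPM in the controls. Control replicate 4 had 373 TPM of these, with 3 of 8 markers at their highest, which left it below Myc-labelled replicates 1 and 4. T and NK cell markers were low, at 1.47 to 4.07 TPM in the Myc-labelled livers and 0.365 to 6.33 TPM in the controls, with the highest sum in control replicate 4 and 3 of 8 at their highest there. These 3 were Gzma, Klrb1c and Nkg7, at 3.69, 1.02 and 0.467 TPM. Cd3e, Cd3d, Cd8a, Cd4 and Ncr1 had their highest values in other libraries.

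Endothelial markers summed to 94.3 to 181 TPM in the Myc-labelled livers and 129 to 199 TPM in the controls, again highest in control replicate 4, with 3 of 8 markers at their highest. Neutrophil markers summed to 26.8 to 160.0 TPM in the Myc-labelled livers and 14.5 to 70.1 TPM in the controls. B cell markers summed to 0.376 to 3.003 TPM in the Myc-labelled livers and 0.542 to 1.59 TPM in the controls. Hepatocyte markers summed to 63237 to 97594 TPM in the Myc-labelled livers and 61823 to 121325 TPM in the controls, the highest of the 9 marker sums in every library. Cholangiocyte markers summed to 117 to 967 TPM in the Myc-labelled livers and 97.2 to 319 TPM in the controls. None of the neutrophil, hepatocyte or cholangiocyte markers had its highest value in control replicate 4. The part of Kupffer, T and NK, endothelial or other cells in the interferon pattern was not tested.

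Outside these lists, the 10 genes whose log2(TPM + 1) most resembled the centred mean of the 36 genes were Rps6kc1, Fchsd2, Ms4a4c, H2-T22, Phf11b, Gm12250, Gm20559, Pde7b, Ifi209 and Trim30d. Pearson's r over the 8 libraries ran between 0.954 and 0.983, as a description of genes picked for the highest values, and the libraries share control replicate 4 as an extreme point. Without that library r ran between 0.855 and 0.960 over the other 7. H2-T22, a nonclassical MHC class I gene, stood at 99.7, 96.3, 63.0 and 112 TPM in Myc-labelled replicates 1 to 4, against 87.9, 81.4, 95.3 and 199.9 TPM in control replicates 1 to 4. Ms4a4c, a membrane protein gene of the MS4A family, stood at 2.03, 0.408, 0 and 2.82 TPM in the Myc-labelled livers, against 0.309, 0.233, 0.171 and 11.4 TPM in the controls. In all 10 genes control replicate 4 was the highest library.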

How the data were processed

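Whole-liver RNA of 8 mice was sequenced, from total RNA and an mRNA library kit as the labels' protocols state. HISAT2, StringTie and the build mm10 are named in the submitters' processing notes, with no versions given in the sources used here. Each library has 1 deposited file with 53816 gene IDs. TPM, the unit of the results, is the authors' deposited value, with a total of 1000000 in each library. The authors' deposited FPKM served as an alternative. Coverage, a signal per the file headers, served with FPKM to estimate aligned bases, on the assumption that FPKM was divided by total aligned bases. No read counts were used, so no counting interval is given. Repeated rows of a gene ID (10 to 15 in each file) were added up.

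Libraries were grouped by their labels. The test was limma 3.58.1 (R 4.3.3; trended, robust, two-sided) on values of log2(TPM + 1). It was fitted to the 13055 genes whose mean reached 1 TPM, and p was adjusted over all of these by the Benjamini-Hochberg method, with a threshold of 0.05. Summaries, motif searches and the exact permutation of Myc used Python 3.11.15, pandas 2.3.3 and numpy 2.4.6. The code was checked on simulated data. Motifs were searched in RefSeq promoters (GRCm38.p6), and similarity between genes in GENCODE M21 transcripts. The 36 genes, the lists and the tests were chosen with earlier results of these data known, so none is independent support. Values of every library are given for the member of each role group with the highest mean and the one with the largest SD. Of each further list the 2 tested genes with the smallest p are named, as are the 10 genes outside all lists whose pattern is most like the members' mean, and the type I interferon receptor subunits, Ikbke, Socs3, Igtp, Cxcl9, Cxcl10 and Mx1 were added after their values were seen. The values of 1 gene of these lists are not reported here. Alternatives covered the pseudocount (0.1 and 5), the filter, 2 other scalings, FPKM, limma without its trend, weights per library, the replicate number as a block, and each library left out in turn.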

Additional observations from a re-analysis of the deposited data

Results flagged for a closer look

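Within groups of 4 libraries, a library was singled out where its gap to the nearest other library, divided by the whole range of log2(TPM + 1), exceeded Dixon's 95% critical value for 4 samples. Of 152 groups looked at 21 exceeded it. Chance alone flags about 1 in 20 groups, but the genes are not independent of each other and several were picked for their pattern, so the count is a description and not a test.

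Control replicate 4 lay high and apart among the controls in 10 of the 36 interferon response genes. The ratios were 0.917 for Irf7, 0.853 for Ifit1, 0.862 for Ifit2, 0.879 for Oas1g and 0.914 for Oas3. They were 0.833 for Herc6, 0.849 for Ifi44, 0.892 for Ifi35, 0.852 for Apol9a and 0.899 for Lgals3bp. The centred mean of the 36 genes gave 0.856 in the controls. Among the further interferon targets looked at, control replicate 4 lay high for Parp12 (0.843), Gbp3 (0.841) and Igtp (0.964). It also lay high for Ms4a4c (0.952), Phf11b (0.922) and Pde7b (0.864), which were picked for their likeness to the members' mean.

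Myc-labelled replicate 3 lay low and apart among the Myc-labelled livers for 1 member, Ifih1, with a ratio of 0.831. It also lay low for Myc itself (0.863), for Tgtp1 (0.956) and for Tgtp2 (0.858). What sets either library apart was not tested.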

How the results depend on the processing

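No member passed the adjusted threshold under any alternative run, with limma adjusted p between 0.9 and 1.0, and control replicate 4 stayed the highest library in all members kept wherever it was included, 24 of them at a mean of at least 5 TPM and 34 with FPKM. The unadjusted count ranged between 0 and 3 when single libraries were left out. The members' median log2 difference ranged between -0.48 (without control replicate 2) and 0.24 (without control replicate 4). The median SD was 0.563 with pseudocount 5, and 0.485 to 0.941 when single libraries were left out. Myc was 0.23 with array weights and -0.91 to 0.43 when single libraries were left out. The replicate numbers did not pair the libraries (same-numbered correlations 0.128, -0.058, 0.065 and 0.070, the highest with the own number in 1 of 4), and with the replicate block 0 members passed and the median stayed -0.23. Without read counts, the counting error of low members such as Oas3 and Ddx60 is unknown.

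Of 640 values of the members under the alternatives, the summed pairs included, 87 turned direction, none of them past the threshold. With pseudocount 5 these were Ddx60 (-0.00826), Stat2 (-0.00856), Irf9 (-0.0046), Ifit1 (-0.0825) and Rtp4 (-0.0182). Median-of-ratios scaling turned Ddx60 (-0.0311), Stat2 (-0.0326), Irf9 (-0.0349), Ifit1 (-0.00023) and Rtp4 (-0.0059). Quantile normalization turned Ddx60 (-0.0529), Stat2 (-0.0197), Irf9 (-0.0357), Ifit1 (-0.0357) and Rtp4 (-0.00589), and FPKM turned Ifit1 (-0.0205). Array weights turned Ddx60 (-0.0486), Stat2 (-0.21), Irf9 (-0.10), Ifit1 (-0.22), Oasl1 (-0.28), Rsad2 (-0.0111), Cmpk2 (-0.0714) and Rtp4 (-0.16). The cause was not tested.

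Leaving out single libraries turned 29 members. Their ranges were -0.34 to 0.19 for Ifih1, -0.27 to 0.13 for Ddx58, -0.52 to 0.22 for Dhx58, -0.20 to 0.29 for Ddx60, -0.29 to 0.21 for Stat2, -0.16 to 0.32 for Irf9 and -0.77 to 0.28 for Irf7. They were -0.26 to 0.67 for Ifit1, -0.57 to 0.12 for Ifit2, -0.75 to 0.76 for Ifit3, -0.61 to 0.53 for Ifit3b, -0.68 to 0.33 for Oas1a, -0.77 to 0.31 for Oas1g, -0.61 to 0.23 for Oas3, -0.18 to 0.68 for Oasl1 and -0.73 to 0.43 for Oasl2. They were -0.53 to 0.66 for Isg15, -0.43 to 0.66 for Usp18, -0.24 to 0.25 for Herc6, -0.10 to 0.67 for Cmpk2, -0.23 to 0.12 for Mx2, -0.61 to 0.20 for Bst2 and -0.40 to 0.10 for Parp14. They were -0.64 to 0.90 for Ifi27l2a, -0.90 to 0.23 for Ifi44, -0.34 to 0.48 for Xaf1, -0.43 to 0.68 for Rtp4, -0.92 to 0.0178 for Apol9b and -0.56 to 0.0912 for Lgals3bp. In each the highest value was that without control replicate 4.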
